A study of Mus musculus with 2 samples.

Results

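The miR-17 seed family comprises 6 mouse microRNAs that share the same target-recognition bases: mmu-miR-17-5p, mmu-miR-20a-5p, mmu-miR-20b-5p, mmu-miR-93-5p, mmu-miR-106a-5p and mmu-miR-106b-5p. Its members were chosen by probe name, and all 6 were found among the 1900 miRNA features of the array, each with 1 spot. The samples were tumours grown from ID-8 LUC2 cells, a mouse ovarian cancer line carrying luciferase, in the peritoneal cavity of C57BL/6 mice aged 5 weeks. The bevacizumab group received bevacizumab, an antibody against VEGF-A, at 5 mg/kg into the peritoneum 2 times a week from day 14. The control group received control IgG at the same dose and schedule, and tumours of both groups were taken at day 42. Bevacizumab was raised against the human protein, and the arrays do not show whether it bound mouse VEGF-A, of the host or of the ID-8 cells. There was 1 array per group, and the labels leave unsaid how many animals contributed to each RNA. The labels call the material ovarian cancer, and the sample protocol speaks of cells where the design text speaks of tumours. With 1 array per group there was no spread between animals and no test between the groups, so every difference is between these 2 arrays.

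MicroRNAs are short RNAs that guide Argonaute proteins to messenger RNAs, chiefly by pairing through the seed near their 5′ end, and so lower the output of their targets. The miR-17 family is made from 3 related clusters, of which miR-17-92 is a transcriptional target of MYC and E2F factors and is known as an oncogenic cluster. Known targets of the family include transcripts of cell cycle inhibitors such as Cdkn1a and of the pro-apoptotic factor Bcl2l11, and the family is abundant in dividing cells. miR-17-92 has also been studied in endothelial cells.

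The mature sequences of all 6 are shown because their close likeness bears on how far the probes can be read apart. They are from RefSeq on build GRCm38.p6, 5′ to 3′, with the seed (bases 2 to 8) in capitals.
mmu-miR-17-5p: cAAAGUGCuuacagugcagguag
mmu-miR-20a-5p: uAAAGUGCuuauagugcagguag
mmu-miR-106a-5p: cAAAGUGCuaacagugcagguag
mmu-miR-20b-5p: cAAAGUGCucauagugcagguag
mmu-miR-106b-5p: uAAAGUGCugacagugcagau
mmu-miR-93-5p: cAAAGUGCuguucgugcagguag

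All 6 had the identical seed, and the shared run extended to base 9. Counted from base 1 at the 5′ end, miR-17-5p and miR-106a-5p differed by 1 substitution, U10A (the base of miR-17-5p first), although they come from different clusters. miR-17-5p and miR-20a-5p, from the same cluster, differed by C1U and C12U. miR-20a-5p and miR-20b-5p differed by U1C and U10C. The pair made from miR-106b-25, miR-106b-5p and miR-93-5p, differed at 5 of the 21 positions that could be compared, the most of any pair. The probes of the closest members may therefore share signal, which was not tested. Among 1679 mature miRNAs in the RefSeq table, 7 carried this seed, and the one outside the family was miR-6383. Its probe was not detected on either array, with spots at 181 units on the bevacizumab array and 71.2 units on the control array. Of 5 miRNAs with a seed shifted by 1 base (miR-302b-3p, miR-302d-3p, miR-291a-3p, miR-294-3p and miR-295-3p), which are known from embryonic stem cells, none was detected on the bevacizumab array and 1, miR-294-3p, on the control array, at 3.14 units above the blanks.

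The hairpins of miR-17-5p and miR-20a-5p lie in the miR-17-92 cluster of 6 hairpins at chr14:115043671-115044506, on the plus strand, with the mature miRNAs at chr14:115043684-115043706 and chr14:115044183-115044205. Those of miR-106a-5p and miR-20b-5p lie in the miR-106a-363 cluster, also of 6 hairpins, at chrX:52741693-52742567 on the minus strand, with the mature miRNAs at chrX:52742541-52742563 and chrX:52742159-52742181. Those of miR-106b-5p and miR-93-5p lie in the miR-106b-25 cluster of 3 hairpins at chr5:138165321-138165818 on the minus strand, with the mature miRNAs at chr5:138165787-138165807 and chr5:138165574-138165596. Both of these last hairpins fall inside the coordinates of Mcm7, a gene of the replicative helicase (chr5:138164583-138172111), whose intron is known to carry this cluster.

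All 6 members were detected on both arrays and were lower on the bevacizumab array. A spot counted as detected when it exceeded the mean plus 2 SD of the array's blank spots, which was 193 units on the bevacizumab array and 74.5 units on the control array. Blank spots lay at 185 ± 4.03 units on the bevacizumab array and at 72.8 ± 0.828 units on the control array (SD over 896 blank spots, with the outer 5% at each end left out). Of 1900 features, 940 were detected on the bevacizumab array and 1416 on the control array, with 917 detected on both. Signals below are spot intensities less the blank mean, in linear units and not scaled between the arrays.

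miR-17-5p, the founding member, had 69.96 units on the bevacizumab array and 413.5 units on the control array. miR-20a-5p, from the same transcript, had 34.7 units on the bevacizumab array and 342.0 units on the control array. In both, the bevacizumab spot was dimmer although the blanks of that array were brighter.

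miR-106a-5p, the X-linked counterpart of miR-17-5p, had 60.96 units on the bevacizumab array and 494 units on the control array. miR-20b-5p, the X-linked counterpart of miR-20a-5p, had 35.6 units on the bevacizumab array and 313 units on the control array. As in the miR-17-92 pair, both spots were dimmer on the bevacizumab array.

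miR-106b-5p had 104 units on the bevacizumab array and 446 units on the control array. miR-93-5p had 109 units on the bevacizumab array and 540.1 units on the control array. Of the 6, these had the smallest ratio of control-array to bevacizumab-array signal. Before any scaling, the control-array signal was 9.86 times the bevacizumab-array signal for miR-20a-5p, 8.79 times for miR-20b-5p, 8.11 times for miR-106a-5p and 5.91 times for miR-17-5p. It was 4.95 times for miR-93-5p and 4.29 times for miR-106b-5p. Summed over the 6, the signal was 414 units on the bevacizumab array and 2549 units on the control array, a ratio of 6.15. In bulk tumour RNA, fewer cells of a type and less RNA per cell cannot be told apart.

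**Figure D1:**
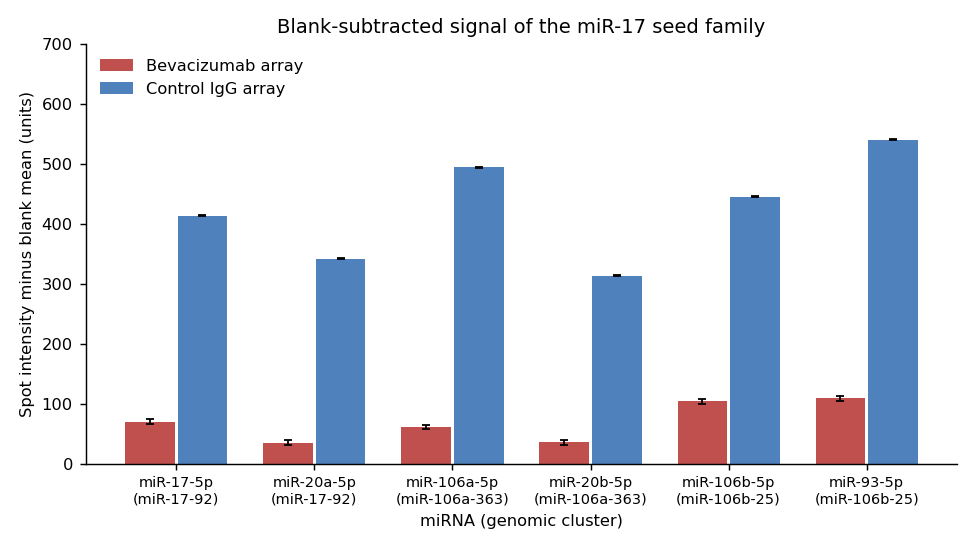
Spot intensity minus the blank mean, in linear units without scaling between arrays, for each family member (grouped by genomic cluster), with bevacizumab bars on the left of each pair and control IgG bars on the right; error bars are 1 SD of the blank spots and cover no animals. The bevacizumab bars lie between 34.7 and 109 units and the control bars between 313 and 540.1 units, so the arrays do not overlap for any member.

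The signals were then corrected with the normexp model (blank spots as negative controls, offset of 50 units) and quantile-normalized over all miRNA features. On this scale miR-106a-5p was 4.54-fold lower on the bevacizumab array (log2 difference -2.18) and miR-20a-5p 4.53-fold lower (-2.18). miR-20b-5p was 4.14-fold lower (-2.05) and miR-17-5p 3.68-fold lower (-1.88). miR-93-5p was 3.32-fold lower (-1.73) and miR-106b-5p 3.00-fold lower (-1.59). Because of the offset, folds of dim miRNAs are understated, and after quantile normalization a difference is relative to the rest of the array.

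All 6 members passed the 2-fold size used here, which 11.6% of the 917 miRNAs detected on both arrays passed downward and 10.5% upward. The family median log2 difference was -1.96, against a median of 0.14 over the 917. Counted from the most lowered, the members took ranks from 28 (miR-106a-5p) to 67 (miR-106b-5p) of 917. They were thus well below most miRNAs but not the most lowered ones.

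**Figure D2:**
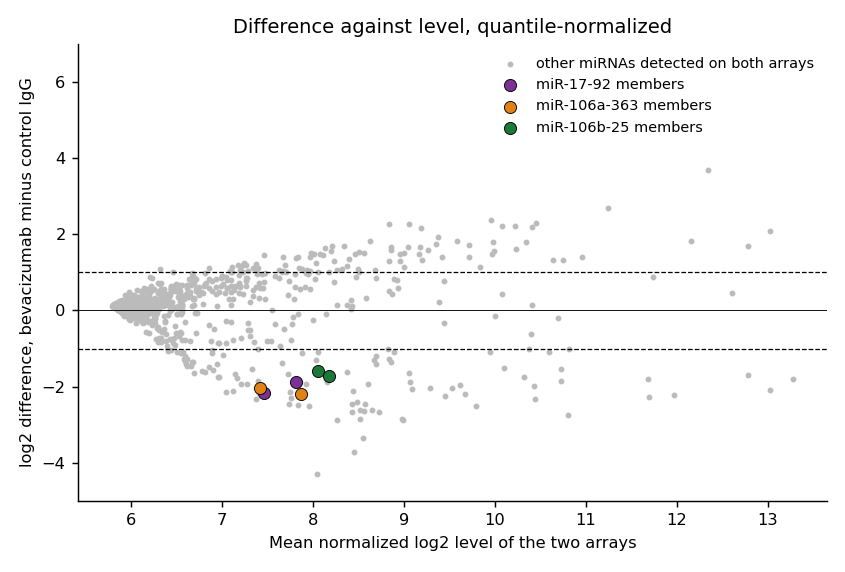
The log2 difference, bevacizumab minus control IgG, after quantile normalization (vertical axis) against the mean normalized log2 level of both arrays (horizontal axis) for the miRNAs detected on both arrays, with family members coloured by cluster and dashed lines at 2-fold. All 6 members lie between -2.18 and -1.59, below the lower line, among other miRNAs that lie as low or lower.

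The only measured error was that of repeated spots. For 5 control probes printed 8 times and detected in every spot, the spread among spots corresponded to 0.16 (SD) on the log2 difference of 1 miRNA. These probes were brighter than the members on the bevacizumab array. There, the spread of the blank spots alone gave an SD of the unscaled log2 ratio from 0.053 for miR-93-5p to 0.17 for miR-20a-5p. Each member's difference was many times either SD, but neither SD covers labelling, hybridisation or animals.

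By cluster, the miR-106b-25 pair was the least lowered. Its mean log2 difference was -1.66 (3.16-fold lower), against -2.03 (4.08-fold) for the miR-17-92 pair and -2.12 (4.33-fold) for the miR-106a-363 pair. The miR-106b-25 mean lay 0.37 above that of miR-17-92 and 0.46 above that of miR-106a-363. The repeat-spot SD of such a difference between 2 pair means is 0.16, smaller than both gaps. This SD covers spot error only and was measured without the offset on brighter control probes. The 2 members of a pair are different miRNAs and not replicates of their cluster. The miR-17-92 and miR-106a-363 means differed by 0.087, which is within that SD. Without scaling or offset the gaps were 0.73 and 0.87, and 0.15 between the other pair. On that unscaled measure the 2 members of miR-17-92 also lay far apart, miR-17-5p at -2.56 and miR-20a-5p at -3.30. With the offset and quantile normalization, members within a cluster differed by 0.30 (miR-17-92), 0.13 (miR-106a-363) and 0.15 (miR-106b-25). The SD for a difference between 2 single members is 0.22. On this scale miR-17-5p lay 0.15 from miR-93-5p of miR-106b-25, nearer than to its own cluster mate miR-20a-5p. No spread between animals stands behind any of these gaps.

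By value, the most alike members in sequence were not the most alike in difference, but spot error is of like size. miR-17-5p and miR-106a-5p, which differ by 1 base, had log2 differences 0.30 apart. miR-106b-5p and miR-93-5p, the least alike in sequence, were 0.15 apart. The widest gap, 0.60, was between miR-106a-5p and miR-106b-5p, which differ at 3 of 21 compared positions.

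Use of the local background printed beside each spot turned the sign for 4 of the 6 members. Only 1 member, miR-20b-5p, then stayed at least 2-fold lower. On the control array the local background of the members lay between 258 and 652 units, against a median of 63.3 units around the blank spots. On the bevacizumab array it lay between 157 and 208 units, against 157 units around the blanks. On the control array it exceeded the spot itself for miR-17-5p (560 units of background, spot at 486), miR-20a-5p (469 and 415), miR-106b-5p (613 and 518) and miR-93-5p (652 and 613). It did not for miR-106a-5p (466 and 567) or miR-20b-5p (258 and 386), nor for any member on the bevacizumab array. The members sit in 6 different blocks of the 32 on the array. How near these blocks lie to each other was not examined, and the part of position in the local background was not tested.

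With local background in place of the blank spots in the normexp model, miR-93-5p, miR-106b-5p, miR-17-5p and miR-20a-5p had log2 differences above 0 (1.12, 0.93, 0.82 and 0.69). miR-106a-5p and miR-20b-5p stayed below 0 (-0.84 and -1.63). The sign thus followed whether the background exceeded the spot. The clusters kept their order but not their spacing, since the miR-17-92 mean then lay 1.99 above that of miR-106a-363 and 0.27 below that of miR-106b-25. Across all features, 22 on the bevacizumab array and 49 on the control array had a local background above their spot. Of the 44 such control-array features that passed detection on both, 34 were at least 2-fold lower on the blank-based scale, with a median log2 difference of -1.73. Its part in the blank-based differences was not tested.

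**Figure D3:**
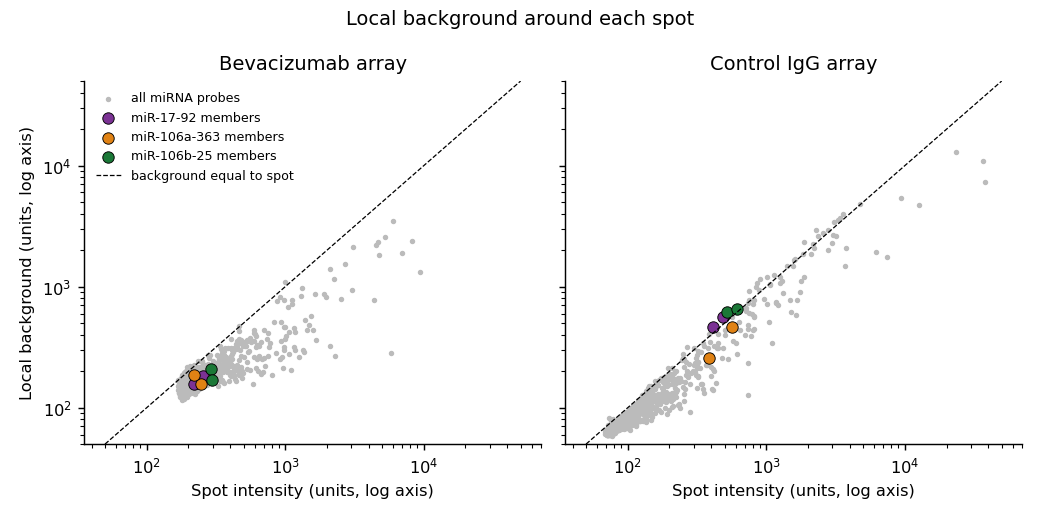
Local background against spot intensity (both in linear units on log axes) for all miRNA features, with family members coloured by cluster, on the bevacizumab array (left) and the control IgG array (right); the dashed line marks a background equal to the spot. On the control array 4 of the 6 members lie above the line, and on the bevacizumab array 0 do.

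The direction held under the other ways of scaling, while the size moved. In the authors' deposited table, in which each array is scaled to a median of 25, miR-20a-5p stood at 28.5 on the bevacizumab array and 677.4 on the control array, 23.8-fold lower. miR-106b-5p, the least lowered in that table, stood at 85.3 on the bevacizumab array and 882.2 on the control array, 10.3-fold lower. The family median was -4.06 in the authors' deposited table and -5.06 when the arrays were scaled to the 5 control probes, whose signal was 4.83 times as high on the bevacizumab array. Those scalings also moved the median of all miRNAs detected on both arrays, to -0.45 and -1.45. Relative to that median the family was at -3.61 in both, and also with blank subtraction without scaling. This match is built in, since both scalings shift every blank-subtracted log2 difference by the same amount. After quantile normalization with the offset the family was at -2.10 relative to the median.

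**Figure D4:**
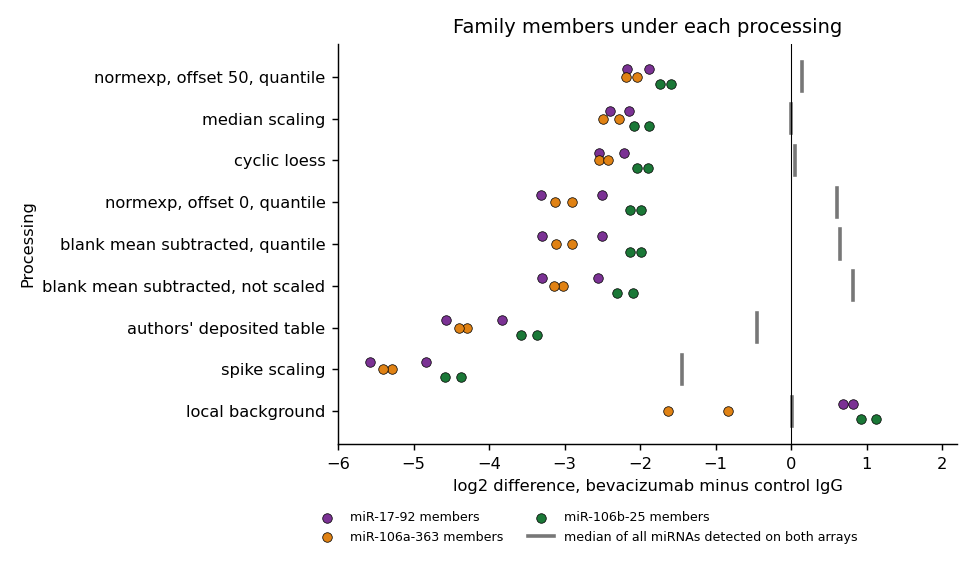
The log2 difference, bevacizumab minus control IgG, of each family member (points, coloured by cluster) under 9 ways of processing, with the median of all miRNAs detected on both arrays as a grey bar. All 6 members lie below 0 and below the grey bar except with local background, where 2 of 6 lie below 0.

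Features of like signal on the control array split into 2 groups. Among 24 miRNAs outside the family that were seen on both arrays with a control signal inside the members' range, 10 were at least 2-fold lower, or 41.7%. This range was set after the values were seen. They included miR-15a-5p, miR-10a-5p, miR-19b-3p, miR-199a-5p, miR-199b-5p and miR-98-5p. The other 14 were all above 0, between 0.43 and 2.38. In base composition, the 9 lower ones with a RefSeq sequence had a median GC content of 52.2%, and the 14 others 66.7%. The members' own GC content ran from 39.1% (miR-20a-5p) to 52.2% (miR-93-5p). On the control array the local background exceeded the spot for 1 of the 10 and 0 of the 14.

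Base composition and the difference were related across the array. Over 778 miRNAs outside the family that were detected on both arrays and had a sequence, GC content and log2 difference had Spearman's rho of 0.35 and Pearson's r of 0.44. These are values across miRNAs measured on the same 2 arrays, which are not independent replicates. Of 27 with a GC content under 40%, 15 were at least 2-fold lower (55.6%). Of 408 with 40% to 60%, 56 were (13.7%), and of 343 above 60%, 12 were (3.50%). The family has 1 member in the first class, miR-20a-5p, and 5 in the second. The part of base composition in the family's difference was not tested.

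Of the other main arms of the 3 clusters, those measured on both arrays were also lower, 2 of them by more than 2-fold. Of 7 such miRNAs, 3 were detected on both arrays, 3 on the control array only and 1, miR-363-3p, on neither. miR-19b-3p, a main arm made from both miR-17-92 and miR-106a-363, had 49.1 units on the bevacizumab array and 461 units on the control array and was 4.93-fold lower. miR-25-3p, made from the same transcript as miR-93-5p, had 20.3 units on the bevacizumab array and 176 units on the control array and was 3.36-fold lower. That is close to its cluster mates with the offset, but unscaled its ratio was 8.66, against 4.95 for miR-93-5p and 4.29 for miR-106b-5p. miR-92a-3p had 57.2 units on the bevacizumab array and 126 units on the control array and was within 2-fold (log2 difference -0.77). Its difference lay above those of both family members of miR-17-92. Seen on the control array only, miR-19a-3p was at least 2.2-fold lower, miR-18a-5p at least 1.48-fold and miR-18b-5p at least 1.15-fold. These bounds set the normalized control level against the lowest detected level on the bevacizumab array, or the probe's own level there if higher. With local background the difference of miR-19b-3p, miR-25-3p and miR-92a-3p was above 0 (0.57, 0.49 and 0.15). For miR-19a-3p, miR-18a-5p and miR-18b-5p it was then only -0.07, -0.10 and -0.04, so the bounds hold for the blank-based scale only.

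The passenger arms, the strands of the same hairpins that are mostly degraded, were on the whole not lower after quantile normalization. Of 15 passenger arm probes, 7 were detected on both arrays, 2 on the control array only and 6 on neither. None of the 7 was at least 2-fold lower and 1 was at least 2-fold higher, with a median log2 difference of 0.12, near the median of all 917. With the offset, their normalized control levels were at most 6.84 (miR-92a-2-5p). That is within 2-fold of the lowest detected level on the bevacizumab array. An arm detected on both arrays therefore could not pass as 2-fold lower on this scale, and the count of none shows nothing about these arms. The counts also depend on the processing. The median of the 7 was 1.01 with an offset of 0, 1.29 with blank subtraction and quantile normalization, and 1.33 with blank subtraction alone. With blank subtraction alone 4 of the 7 (miR-93-3p, miR-92a-2-5p, miR-363-5p and miR-25-5p) were at least 2-fold higher. So were 373 of all 917 miRNAs, whose median was 0.82. In the authors' deposited table, miR-17-3p (2.05-fold) and miR-106b-3p (3.81-fold) were at least 2-fold lower, and the median of the 7 was 0.053. With scaling to the control probes 3 of the 7 were at least 2-fold lower and the median was -0.94, against a median of -1.45 over all miRNAs.

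miR-17-3p had 45.3 units on the bevacizumab array and 38.5 units on the control array, a normalized log2 difference of 0.057. The main arm miR-17-5p, cut from the same hairpin, minus its passenger arm gave -1.94 on the log2 scale. miR-106b-3p had 15.3 units on the bevacizumab array and 24.2 units on the control array (log2 difference -0.26), and miR-106b-5p minus its passenger arm gave -1.32. miR-93-3p had 10.1 units on the bevacizumab array and 4.02 units on the control array (0.12), and miR-93-5p minus its passenger arm gave -1.85. In all 3 members' hairpins with both arms detected, the main arm was more lowered than its passenger arm on this scale. Given the main arms' drop, this order was built in. The normalized control levels of miR-17-3p, miR-106b-3p and miR-93-3p were 6.49, 6.26 and 5.77. These lie within 2-fold of the lowest detected level on the bevacizumab array, so no detected passenger arm could drop as far. With blank subtraction alone these passenger arms were at 0.24, -0.66 and 1.33, and their main arms at -2.56, -2.10 and -2.31. Detection on both arrays limits a dim arm's drop there too. With local background the order of the arms turned round in all 3 hairpins. The differences were 0.82 for miR-17-5p and 0.11 for miR-17-3p, and 0.93 for miR-106b-5p and 0.30 for miR-106b-3p. They were 1.12 for miR-93-5p and 0.17 for miR-93-3p. The passenger arms of miR-20a, miR-20b and miR-106a were not detected on both arrays.

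miR-363-5p had 239 units on the bevacizumab array and 55.6 units on the control array, and was the passenger arm at least 2-fold higher (log2 difference 1.45). It stayed above 0 in the authors' deposited table (0.83) but not under scaling to the control probes (-0.17). miR-92a-2-5p had 168 units on the bevacizumab array and 62.2 units on the control array (0.87), and lay below 0 with control-probe scaling (-0.84). Both come from the X-linked cluster whose main arms miR-106a-5p and miR-20b-5p were lower. miR-25-5p, from miR-106b-25, was at 0.49, and at -0.49 with control-probe scaling. On the bevacizumab array miR-93-3p, miR-106b-3p and miR-18b-3p lay under a detection limit of 5 SD, so their ratios are imprecise. Signals of a main arm and its passenger arm come from different probes and were not set against each other as levels.

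**Figure D5:**
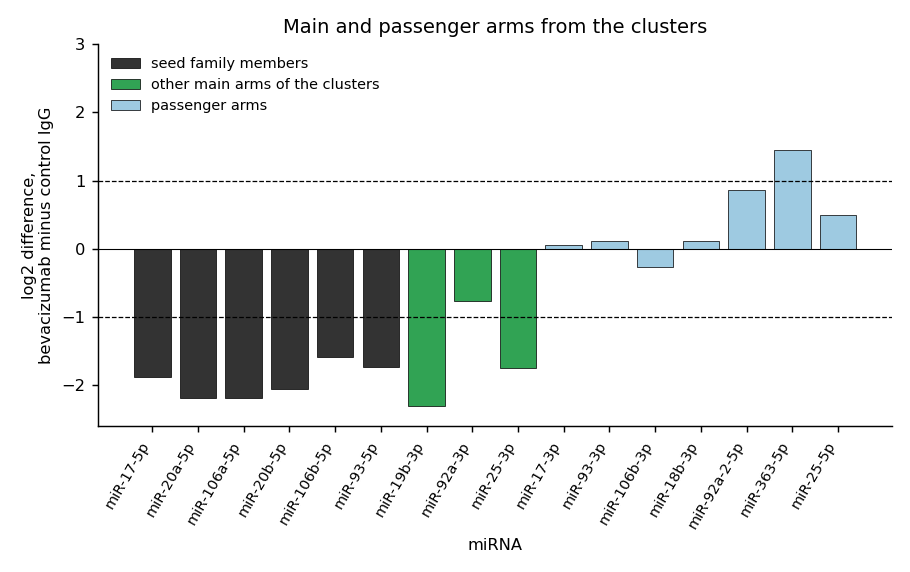
The log2 difference, bevacizumab minus control IgG, after quantile normalization for the family members, the other main arms of their clusters and the passenger arms, limited to those detected on both arrays, with dashed lines at 2-fold. The 6 members lie between -2.18 and -1.59, the 3 other main arms between -2.30 and -0.77, and the 7 passenger arms between -0.26 and 1.45.

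The miRNAs nearest to the family in pattern, by the Euclidean distance between their 2 normalized log2 levels and the family's mean levels (6.83 on the bevacizumab array and 8.76 on the control array), were miR-98-5p at a distance of 0.0999, miR-199a-5p at 0.17 and miR-6402 at 0.17. This likeness is over 2 arrays only. For single members, the nearest were miR-98-5p to miR-17-5p, miR-199b-5p to both miR-20a-5p and miR-20b-5p, and miR-19b-3p to miR-106a-5p. miR-3084-3p was nearest to miR-106b-5p and miR-497a-5p to miR-93-5p.

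Most markers of other cell types that could be measured were lower as well. Of 21 marker miRNAs, 12 were detected on the bevacizumab array and 20 on the control array. Of the 12 seen on both, 9 passed the 2-fold size downward, against 11.6% of all 917 miRNAs. The other 3 were miR-223-3p (leukocyte, log2 difference -0.81), miR-150-5p (leukocyte, 0.33) and miR-214-3p (stromal, 0.39). With local background, some of the 9 lay above 0: miR-200b-3p (0.32), miR-126a-3p (0.62), miR-143-3p (0.49), miR-1a-3p (0.43) and miR-133a-3p (0.94). The rest of the 9 stayed below 0: miR-451a (-3.56), miR-145a-5p (-2.48), miR-199a-5p (-0.93) and miR-126a-5p (-0.41). miR-150-5p had 44.2 units on the bevacizumab array and 21.1 units on the control array, and miR-214-3p had 140.4 units on the bevacizumab array and 87.2 units on the control array. Summed blank-subtracted signal was 22.1 units on the bevacizumab array and 549 units on the control array for 5 epithelial markers. For 5 leukocyte markers it was 70.7 units on the bevacizumab array and 282 units on the control array. For 2 erythroid markers it was 149.9 units on the bevacizumab array and 1699 units on the control array, and for 2 endothelial markers 86.5 units on the bevacizumab array and 997 units on the control array. For 4 stromal and mural markers it was 464 units on the bevacizumab array and 3276 units on the control array, and for 2 striated muscle markers 232 units on the bevacizumab array and 2016 units on the control array. The hepatocyte marker miR-122-5p was not detected on either array. On the bevacizumab array miR-200b-3p was the 1 epithelial marker detected, and miR-144-3p and both miR-142a arms were below the limit. These sums include probes that were not above background, 4 of the 5 epithelial ones on the bevacizumab array. For miR-200b-3p, the epithelial marker detected on both arrays, the unscaled control-array signal was 6.23 times the bevacizumab-array signal, against 6.15 for the family's sum. For the sum of the 5 epithelial markers this ratio was 24.8. Among all markers detected on both arrays it ran from 0.48 (miR-150-5p) to 128 (miR-1a-3p). The value for miR-1a-3p is imprecise, since its bevacizumab signal was 10.5 units, under a detection limit of 5 SD. The next highest ratio was 31.1 (miR-143-3p). A single near match in such a range does not tie the family to a cell type. The part of cell composition in the family's difference was not tested.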

How the data were processed

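Cy5-labelled total RNA was hybridised to 1 Toray 3D-Gene miRNA array per group, per the labels' protocols. Per the file headers, the deposited scanner values are spot median and local background intensity, from 3 scan gains related by least squares; no normalization is recorded. The authors' deposited value table is in linear intensity units, and set against the scanner values it equals spot minus blank mean divided by a factor per array, to within 0.053 units; no software is named in the sources used here. Each array had 3200 spots (1900 miRNA features, 896 blanks and 404 control spots), and none was marked as failed. limma 3.58.1 in R 4.3.3 was used for normexp (blanks as negative controls, offset 50) and quantile normalization, tested on simulated data. A log2 value here is computed from the deposited intensities. Differences are bevacizumab minus control IgG. Precision is limited by the single array per group. The spike probes for scaling were those of 8 spots, all detected on both arrays. Sequences and coordinates are RefSeq's on GRCm38.p6; the array files name no genome build. The offset-seed list used miR-302b-3p as its model in place of miR-302a-3p, because the table used here lists no entry under the second name. All members, all other main arms of the 3 clusters and the passenger arms were named by list, and nearest patterns by smallest distance; other names were chosen after their values were seen. Members and lists were chosen with earlier results of these data known. Alternatives tried were median scaling, cyclic loess, an offset of 0, blank subtraction with and without quantile normalization, control-probe scaling, local background, a limit of 5 SD and the deposited table.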

Additional observations from a re-analysis of the deposited data

How the results depend on the processing

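No paired analysis was possible because there was 1 array per group, and for the same reason no array could be left out. All 6 members kept a log2 difference below -1 in each processing tried except local background, where 1 did (miR-20b-5p). With median scaling the family median was -2.21, and the means of the miR-17-92, miR-106a-363 and miR-106b-25 pairs were -2.27, -2.38 and -1.98. With cyclic loess the family median was -2.32, and the means of the miR-17-92, miR-106a-363 and miR-106b-25 pairs were -2.38, -2.48 and -1.97. With an offset of 0 the family median was -2.71, and the means of the miR-17-92, miR-106a-363 and miR-106b-25 pairs were -2.91, -3.02 and -2.06. With blank subtraction and quantile normalization the family median was -2.70, and the means of the miR-17-92, miR-106a-363 and miR-106b-25 pairs were -2.90, -3.01 and -2.06. With blank subtraction without scaling the family median was -2.79, and the means of the miR-17-92, miR-106a-363 and miR-106b-25 pairs were -2.93, -3.08 and -2.20. With control-probe scaling the family median was -5.06, and the means of the miR-17-92, miR-106a-363 and miR-106b-25 pairs were -5.20, -5.35 and -4.48. In the authors' deposited table the family median was -4.06, and the means of the miR-17-92, miR-106a-363 and miR-106b-25 pairs were -4.20, -4.35 and -3.47. With local background the family median was 0.75, and the means of the miR-17-92, miR-106a-363 and miR-106b-25 pairs were 0.75, -1.24 and 1.03. Local background also gave 0.49 for the median of the other main arms, 0.82 for miR-17-5p, 0.69 for miR-20a-5p, 0.93 for miR-106b-5p and 1.12 for miR-93-5p. A detection limit of 5 SD kept all 6 members and left the family and cluster values as they were, but cut the miRNAs counted on both arrays to 617 (86 lower and 95 higher, 47.5% of calls downward) and gave a passenger arm median of 0.68. The main arms outside the family at least 2-fold lower numbered 2, or 3 with cyclic loess, an offset of 0, either blank subtraction, control-probe scaling and the authors' deposited table, and 0 with local background. Over every miRNA seen on both arrays, 106 passed 2-fold downward and 96 upward with quantile normalization and the offset (52.5% of calls downward). These were 113 and 53 (68.1%) with median scaling, 129 and 61 (67.9%) with cyclic loess, and 156 and 306 (33.8%) with an offset of 0. They were 156 and 313 (33.3%) with blank subtraction and quantile normalization, 148 and 373 (28.4%) with blank subtraction without scaling, 645 and 5 (99.2%) with control-probe scaling, 295 and 27 (91.6%) in the authors' deposited table, and 47 and 48 (49.5%) with local background. Repeat spots measure error within an array only, and the bevacizumab array's higher blanks limit what can be read of dim passenger arms.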
